A study of Mus musculus with 12 samples.

Results

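The genes described here are 36 imprinted mouse genes that lie outside the Prader-Willi and Dlk1-Dio3 regions. They were taken from a list of gene symbols and looked up by gene name in the table of counts. The look-up used no measured value, but the list was chosen with earlier results of these data known. Of the 36 names, 35 had a row among the 57132 features of the table. Zrsr1 had none under that name, so that its level was not analysed here. A feature named Zrsr2-ps1 lies inside Commd1, and whether it is the same gene was not checked. The filter on low counts (CPM, a gene's counts scaled to the size of the library, of 0.5 or more in 3 or more libraries) was passed by 30 of the 36, and by 13902 features in all. The 5 below that filter were H19, Kcnq1, Phlda2, Slc38a4 and Airn. Begain lies at the border of the choice, since its annotated span lies 385 kb from Dlk1 on chromosome 12.

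The libraries came from striatum of mice lacking the trace amine-associated receptor TAAR5 (TAAR5-KO) and of wild-type (WT) littermates on a C57Bl/6 background, with 6 libraries in each group. All mice were 10 months old and, by the methods of the study, each group held 3 males and 3 females, but the columns of the table are not tied to single animals, so sex did not enter any comparison. The striatum was cut from a brain slice after the cortex had been removed, total RNA was depleted of ribosomal RNA, and the directional libraries were sequenced as single-end reads of 100 bases. The deletion was carried by the whole animal, so that no cell type is singled out by the design.

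Imprinted genes are transcribed mainly or wholly from the chromosome inherited from 1 parent. The choice is set by DNA methylation that is laid down in the germ line at imprinting control regions, which often coincide with promoters rich in CpG, and is kept through the divisions of the embryo by the zinc finger protein ZFP57 and its partner TRIM28. In several clusters a long non-coding RNA, transcribed from the paternal chromosome, silences neighbouring genes on that chromosome, and in the brain many imprinted genes take part in growth, neuronal survival and feeding or parental behaviour. Counts per gene add both alleles together, so that the values below are total levels and hold no information on which allele was read.

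The promoter upstream of Kcnq1ot1 is shown because this gene was the only one of the 30 past the threshold, and that of Peg3 because it is a paternally expressed gene of high level per length that did not pass any test. Both are the 250 bases before the RefSeq start of the gene, with CpG dinucleotides in capitals. That of Kcnq1ot1 lies on the minus strand of GRCm39 at chr7:142850285-142850534, inside an intron of Kcnq1, and that of Peg3 on the minus strand at chr7:6733419-6733668, where it reaches into the first bases of Usp29.
Kcnq1ot1: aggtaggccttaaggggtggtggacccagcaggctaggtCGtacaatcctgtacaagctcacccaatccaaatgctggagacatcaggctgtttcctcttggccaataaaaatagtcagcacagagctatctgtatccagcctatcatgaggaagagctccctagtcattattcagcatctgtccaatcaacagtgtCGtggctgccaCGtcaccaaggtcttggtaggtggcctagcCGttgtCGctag
Peg3: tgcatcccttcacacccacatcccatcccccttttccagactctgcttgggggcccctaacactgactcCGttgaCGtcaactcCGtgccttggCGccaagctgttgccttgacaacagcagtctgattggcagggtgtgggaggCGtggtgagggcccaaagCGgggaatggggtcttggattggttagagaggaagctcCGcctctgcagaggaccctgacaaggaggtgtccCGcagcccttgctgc
The first holds 5 CpG and the second 8. RefSeq promoters (GRCm38.p6) were found for 27 of the 36 names, Zrsr1 among them, and their 46 promoters held a median of 14 CpG in 250 bases, against 6 over all 32851 promoters. The letters TGCCGC, the core of the sites that ZFP57 binds when methylated, occurred on either strand in 8 of the 46 (17.4%), namely in promoters of Calcr, Copg2, Mest, Nap1l5, Plagl1, Zdbf2 and Zim1, against 8.68% of all promoters. The letters CCATNTT, the core of sites of the factor YY1, occurred on either strand in 4 (8.7%, in promoters of Grb10, Igf2, Nnat and Slc38a4), against 12.4%, and no promoter of these genes held both. Neither was in the windows of Kcnq1ot1 and Peg3, and promoters of the same gene overlap in part, so the counts describe letters only.

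Total counts ran from 11269915 to 34824450 per library, of which ribosomal RNA took 64.3 to 88.1%, and 1819907 to 6399188 counts per library were left for all other genes. A value of 3 counts, which a count of 0 allows, came to 0.0679 to 0.362 CPM on the scale used below (library sizes scaled by TMM factors), and this covers counting error only. Taar5 had 2, 3, 2, 1, 2 and 6 counts in the libraries labelled TAAR5-KO and 0, 1, 0, 0, 2 and 0 in those labelled WT, so the counts go against the labels at this low depth, and groups are given as labels throughout. Markers of striatal spiny neurons were detected in every library (sum of 6 genes 93.6 to 200 CPM, lowest in NK11, then 143 in NK12). Those of the choroid plexus were not evenly present. Their sum was 4.63 to 9.45 CPM in 5 libraries (NK1, NK2, NK3 and NK6 labelled TAAR5-KO, and NK12 labelled WT) and 121 to 503 CPM in the other 7, so that this tissue moves in part with the labels. P-values measure the spread between these libraries.

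Of the 30 imprinted genes tested, 1 was past the threshold, an adjusted p under 0.1 in edgeR's likelihood ratio test with Benjamini-Hochberg adjustment over all 13902 features, and it was higher in the libraries labelled TAAR5-KO. No member was lower by that test. Over all features 229 (1.65%) were past the threshold, 133 higher (0.957%) and 96 lower (0.691%), and 1 of 30 is near that background. By edgeR's quasi-likelihood test no member passed, against 63 features in all (0.453%). By DESeq2 2 passed, and 6 of the 30 were given no adjusted p. That compares with 177 of the 6893 features to which DESeq2 gave an adjusted p (2.57%). At an unadjusted p under 0.05 there were 3 members in each of these 3 tests, against 11.9% of all features in the likelihood ratio test. The log2 fold changes of the 30 ran from -0.49 to 0.52 with a median of -0.06, against -0.01 over all features, and 7 were above 0 and 23 below.

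**Figure D1:**
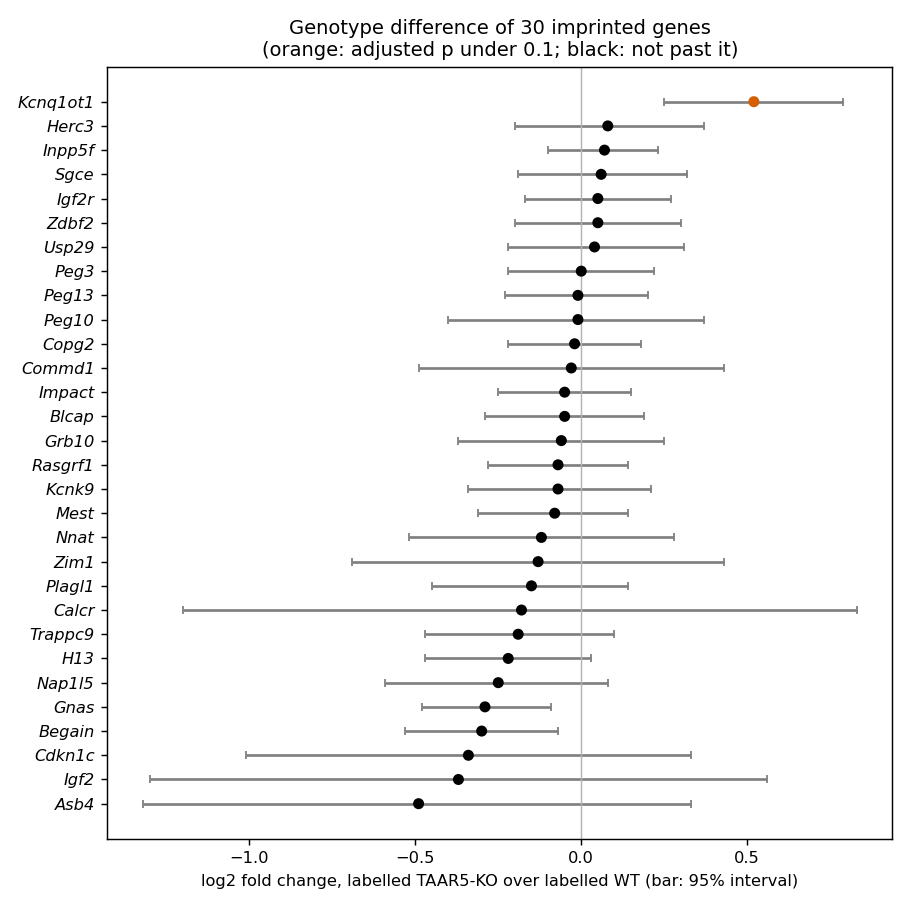
Log2 fold change (libraries labelled TAAR5-KO over labelled WT) of the 30 imprinted genes tested, 1 per line and in order of size, with bars for 95% intervals and orange for the gene past the threshold. Kcnq1ot1 at 0.52 is the only orange point, Gnas at -0.29 and Begain at -0.30 have intervals below 0, and the widest intervals belong to Calcr, Igf2 and Asb4, genes of few counts.

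Among the non-coding RNAs, Kcnq1ot1 (ENSMUSG00000101609.4) rose. It is the paternally transcribed antisense RNA of the Kcnq1 domain, known for silencing neighbouring genes on the paternal chromosome in placenta and embryo. It is annotated on GRCm39 at chr7:142731562-142850286 on the minus strand, within the span of Kcnq1 on the plus strand. The libraries labelled TAAR5-KO held 58.3, 38.0, 35.9, 37.2, 38.1 and 34.0 CPM and those labelled WT 27.5, 33.8, 32.4, 27.1, 25.9 and 21.4 CPM. All 6 of the former lay above all 6 of the latter, with NK1 apart from the rest at the top and a narrow gap between the groups. Groups did not overlap for 1.01% of all features, and for 0.619% in this direction. Among the 30 genes they were apart for 2.

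The means were 40.2 ± 8.98 CPM (SD, n = 6) and 28.0 ± 4.53 CPM (SD, n = 6), a 1.44-fold difference (95% interval 1.19 to 1.73) and a log2 fold change of 0.52 ± 0.14 (SE), with an adjusted p of 0.0276 in edgeR's likelihood ratio test. The call was not shared by every test. The adjusted p was 0.122 in the quasi-likelihood test of edgeR and 0.0205 in DESeq2. Without NK1, the highest library, the log2 fold change was 0.39 and the adjusted p of the likelihood ratio test 0.0923. It was lost without NK7 (0.52, adjusted p = 0.101), NK11 (0.50, adjusted p = 0.120) or NK12 (0.45, with an adjusted p just above the threshold).

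Several properties of the feature and of the libraries stand beside this difference. The exons of Kcnq1ot1 add up to 93651 bases, the third longest of the 13902 features tested, and its counts of 225 to 1302 per library are spread over that length. Per kilobase it held 0.364 CPM, the 24th of the 30 genes. Median log2 fold changes over all features ran from -0.05 in the shortest of 5 equal classes of exon length to 0.04 in the longest, and among the 704 long non-coding RNAs tested 33 (4.69%) were called, 30 higher and 3 lower, with a median of 0.13. With each library's trend on length removed the log2 fold change was 0.37 (adjusted p = 0.0985), and with the trend on GC content removed 0.41 (adjusted p = 0.0832), both in the likelihood ratio test. Its own GC content was 40.4%. With the ribosomal RNA share of each library as a covariate it was 0.43 and past the threshold no more (adjusted p = 0.125), and with the choroid plexus sum as a covariate 0.55 (adjusted p = 0.0289). Among the 5 libraries low in choroid plexus markers the 4 labelled TAAR5-KO held 34.0 to 58.3 CPM and the 1 labelled WT 21.4 CPM, and among the 7 others the 2 labelled TAAR5-KO held 37.2 to 38.1 CPM and the 5 labelled WT 25.9 to 33.8 CPM.

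**Figure D2:**
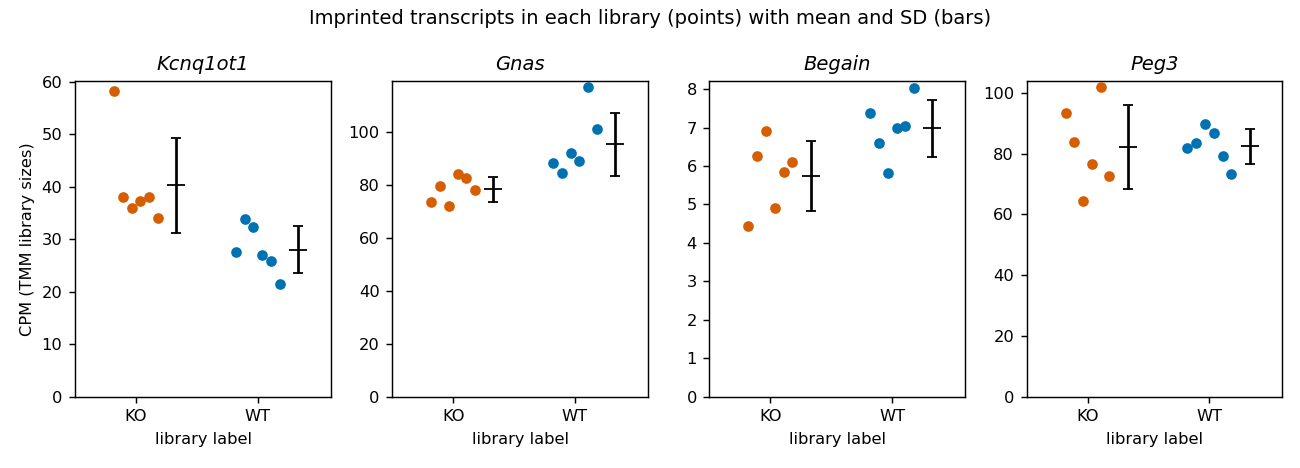
CPM of Kcnq1ot1, Gnas, Begain and Peg3, with a point for each of the 6 libraries labelled TAAR5-KO (orange, KO) and the 6 labelled WT (blue), and bars for the mean with SD. The groups are apart for Kcnq1ot1 and Gnas, overlap for Begain, and overlap fully for Peg3, and NK1 stands alone at 58.3 CPM of Kcnq1ot1.

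The other non-coding RNA tested was Peg13, a paternally expressed RNA that lies within the span of Trappc9. Its means were 21.0 ± 2.59 and 21.0 ± 2.85 CPM (SD, n = 6 each), with a log2 fold change of -0.01 ± 0.11 (SE) and a 95% interval of -0.23 to 0.20. The annotation shares 27.4% of its exon bases with Trappc9 on the same strand, so its counts are uncertain. H19, the maternally expressed RNA beside Igf2, had 14 counts in all 12 libraries together, and Airn, the paternal antisense RNA of the Igf2r domain, had 39, with at most 7 in 1 library. These 2 were too scarce to compare.

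Around Kcnq1ot1, the genes of the domain itself were weakly expressed or not past the threshold. Kcnq1, the potassium channel whose gene hosts the antisense RNA, had 17 counts over all libraries with at most 3 in 1 library, and Phlda2, a growth-restricting pleckstrin homology protein of the placenta, had 1. Of the genes of both lists used here that lie within 1 Mb, 7 besides Kcnq1ot1 were tested. The second list holds genes imprinted in some tissue, and which of these are imprinted in striatum was not tested. All 7 had log2 fold changes below 0, as had 7110 of the 13902 features tested, and 0 were past the threshold in the likelihood ratio test. They were Tssc4 (-0.57 ± 0.21 SE, adjusted p = 0.176), Cd81, a tetraspanin of the cell surface (-0.26 ± 0.11 SE, adjusted p = 0.318), Cdkn1c (-0.34 ± 0.34 SE), Igf2 (-0.37 ± 0.48 SE), Th (-0.31 ± 0.46 SE), Osbpl5 (-0.29 ± 0.24 SE) and Nap1l4 (-0.10 ± 0.10 SE). The unadjusted p in edgeR's likelihood ratio test was under 0.05 for Tssc4 (0.00606) and Cd81 (0.0224). The adjusted p of the quasi-likelihood test was 0.251 for Tssc4 and 0.333 for Cd81, and that of DESeq2 0.258 for Cd81 and missing for Tssc4. The direction was not kept under every alternative. With the choroid plexus sum as a covariate Igf2 was at 0.01 and Cdkn1c at 0.04, and Tssc4 at -0.62 passed the threshold. Without NK4, Igf2 was at -0.89 and Cdkn1c at -0.81, and the latter passed the threshold.

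**Figure D3:**
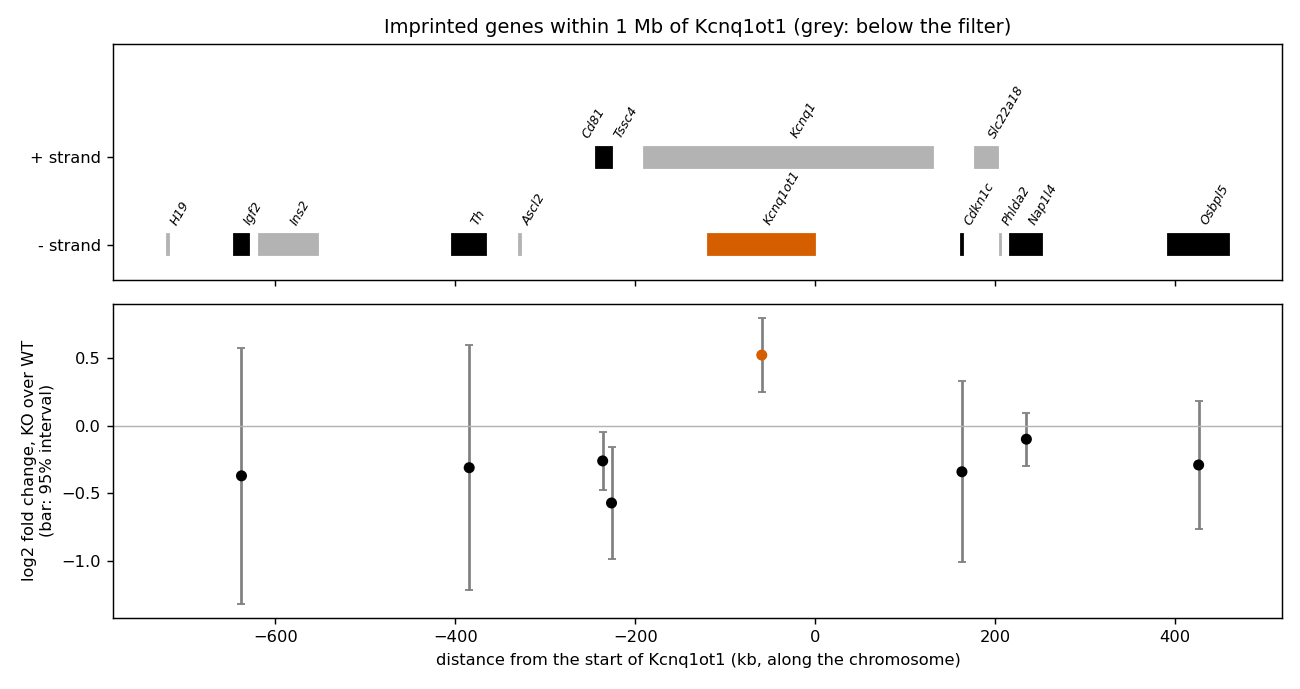
Genes of both lists, imprinted in some tissue, within 1 Mb of Kcnq1ot1 by strand against the distance from its start in kb (above, grey for genes below the filter), and the log2 fold change (labelled TAAR5-KO over WT) with 95% intervals of those tested (below). Kcnq1ot1 at 0.52 is the only value above 0, and the other 7 lie between -0.57 and -0.10, of which Igf2 and Cdkn1c move to 0.01 and 0.04 with the choroid plexus sum as a covariate.

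Of the growth and signalling genes, 7 of 8 were tested, 1 was above 0 and 6 below, with a median log2 fold change of -0.15. The highest level per length (7.63 CPM per kb) belonged to Gnas, the complex locus of the stimulatory G protein alpha subunit, which couples many receptors to adenylyl cyclase. The locus also yields imprinted transcripts from upstream promoters. Gnas held 73.4, 79.7, 72.1, 84.2, 82.5 and 78.2 CPM in the libraries labelled TAAR5-KO and 88.4, 84.7, 92.1, 89.2, 117 and 101 CPM in those labelled WT. The groups did not overlap, although NK4 at the top of the former and NK8 at the bottom of the latter nearly met, and NK11 stood above the other WT libraries. Groups did not overlap in this direction for 0.388% of all features.

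The means of Gnas were 78.3 ± 4.83 and 95.5 ± 12.1 CPM (SD, n = 6 each), a ratio of 0.820 (95% interval 0.717 to 0.939) and a log2 fold change of -0.29 ± 0.10 (SE). The adjusted p was 0.147 in edgeR's likelihood ratio test, 0.213 in its quasi-likelihood test and 0.0461 in DESeq2, so only the last called it. Without NK4 the likelihood ratio test gave 0.0959, and without NK11 the log2 fold change was -0.22. With each library's trend on GC content removed it was -0.17 (adjusted p = 0.645), and the exons of Gnas have a GC content of 57.5%. Astrocyte and microglial markers moved with the labels in the same direction as Gnas. The summed level of 5 astrocyte genes was 130 to 172 CPM (median 158) in the libraries labelled TAAR5-KO and 183 to 204 CPM (median 188) in those labelled WT, without overlap, in an exact two-sided permutation test p = 0.00216, the smallest that 6 against 6 libraries can give. All 5 were lower and 1 was called. The sum of 4 microglial genes was 21.0 to 29.8 CPM against 29.2 to 36.2 CPM (p = 0.00433, exact permutation test), all 4 were lower and 2 were called. The sum of 6 spiny neuron genes was 155 to 200 CPM against 93.6 to 172 CPM (p = 0.0216, exact permutation test), with 0 called by the likelihood ratio test. These are unadjusted values over 12 marker lists, the part of these cells in the values of Gnas and Kcnq1ot1 was not tested, and in bulk tissue fewer cells of a type and less RNA per cell cannot be told apart.

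The other growth genes gave wide or narrow intervals around 0 according to their level. Rasgrf1, a calcium-dependent Ras exchange factor of neurons, had 45.3 ± 5.00 and 47.4 ± 6.10 CPM (SD, n = 6 each), with a 95% interval of the log2 fold change from -0.28 to 0.14. Plagl1, a zinc finger factor that regulates other imprinted genes, had 10.4 ± 1.44 and 11.7 ± 2.92 CPM, Grb10, an adaptor that damps insulin and growth factor receptors, 9.39 ± 2.54 and 9.87 ± 1.48 CPM, and Igf2r, the receptor that clears IGF2, 6.51 ± 0.758 and 6.39 ± 0.643 CPM. None of these intervals left out 0.

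Cdkn1c, the maternally expressed inhibitor of cyclin-dependent kinases, and Igf2, the paternally expressed growth factor, were scarce. Cdkn1c had 10 to 59 counts and Igf2 2 to 21 counts per library. Cdkn1c was at 0.766, a median of 1.09 and 3.66 CPM in the libraries labelled TAAR5-KO and at 0.905, a median of 1.82 and 2.77 CPM in those labelled WT. The annotation shares 30.6% of the exon bases of Cdkn1c with a feature on the opposite strand and 64.5% of those of Igf2 with others, mostly on the same strand, so both counts are uncertain.

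The 3 genes of the Peg3 cluster (Peg3, Usp29 and Zim1), taken with Zdbf2 and Peg10, were all tested and had a median log2 fold change of 0.00, with 2 above 0 and 3 below, and the likelihood ratio test called 0 (0 at an unadjusted p under 0.05). Peg3, a paternally expressed zinc finger protein of neurons known for maternal behaviour, was at 64.4, a median of 80.2 and 102 CPM in the libraries labelled TAAR5-KO and at 73.2, a median of 82.7 and 89.6 CPM in those labelled WT. The WT libraries lay wholly within the range of the others. The log2 fold change was -0.00 ± 0.11 (SE) with a 95% interval of -0.22 to 0.22. Usp29, a ubiquitin-specific protease gene, is transcribed away from Peg3, and 146 bases lie between their annotated starts. It had 12.9 ± 2.20 and 12.5 ± 2.31 CPM, and its neighbour Zim1 0.946 ± 0.394 and 1.14 ± 0.432 CPM. Zdbf2, linked to growth through the hypothalamus, had 17.3 ± 3.72 and 16.7 ± 1.55 CPM, and Peg10, a retrotransposon-derived gene with a Gag-like protein, 16.0 ± 5.74 and 16.3 ± 3.50 CPM (SD, n = 6 each for all 4).

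Several imprinted genes lie inside a larger host gene or share its strand ends, and 10 of 11 genes of this kind were tested. Their median log2 fold change was -0.07, 2 were above 0 and 8 below, with 0 past the threshold and 0 at an unadjusted p under 0.05 in the likelihood ratio test. Nap1l5, an intronless nucleosome assembly gene inside Herc3, had the highest level per length of all 30 (18.8 CPM per kb). It was at 14.7, a median of 33.8 and 42.3 CPM in the libraries labelled TAAR5-KO and at 31.9, a median of 37.5 and 42.1 CPM in those labelled WT. The low end belongs to NK3 alone, and its means of 31.6 ± 9.45 and 37.7 ± 3.61 CPM (SD, n = 6 each) corresponded to a log2 fold change of -0.25 ± 0.17 (SE). Nnat, neuronatin, a small membrane protein of the endoplasmic reticulum inside Blcap, ranked second per length (8.77 CPM per kb). It was at 11.9, 13.1, 9.41, 21.6, 23.4 and 12.9 CPM against 21.6, 19.9, 19.7, 13.1, 12.6 and 13.3 CPM, and the WT libraries lay within the range of the others.

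The hosts Herc3 (15.9 ± 3.03 and 14.9 ± 3.05 CPM), Blcap (5.51 ± 0.975 and 5.82 ± 0.511 CPM), Trappc9 (3.58 ± 0.633 and 4.14 ± 0.582 CPM) and Commd1 (1.04 ± 0.415 and 1.06 ± 0.174 CPM) did not pass. Mest, a paternally expressed hydrolase of the endoplasmic reticulum, had 7.67 ± 1.06 and 8.12 ± 0.820 CPM, and Copg2, a coat protein gene that converges on it, 10.2 ± 1.04 and 10.2 ± 1.04 CPM. H13, a signal peptide peptidase with imprinted polyadenylation, had 3.90 ± 0.471 and 4.58 ± 0.645 CPM, and Inpp5f, an inositol phosphatase with an imprinted brain transcript, 18.5 ± 1.17 and 17.8 ± 1.30 CPM (SD, n = 6 each for all 8). Mest and Copg2 share 23.1% and 17.8% of their exon bases with features on the opposite strand. Trappc9 shares 12.8% with features on the same strand, so the counts of Mest, Copg2 and Trappc9 are uncertain.

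To ask whether an imprinted gene moved against a neighbour that shares its promoter region, host or cluster, the log2 ratio of 7 pairs was compared between labels by exact two-sided permutation over all 924 assignments. None passed. The largest difference was in Nap1l5 over Herc3, which was 0.93 ± 0.75 in the libraries labelled TAAR5-KO and 1.35 ± 0.40 in those labelled WT (SD, n = 6 each), a difference of -0.42 (exact p = 0.266, adjusted 0.688). NK3, at -0.40, was the only library with less Nap1l5 than Herc3, and without it the difference was -0.15, smaller than that of the next pair. Peg13 over Trappc9 differed by 0.21 and Zim1 over Peg3 by -0.20. Peg10 over Sgce, whose annotated starts lie 98 bases apart, differed by -0.11 and Mest over Copg2 by -0.08. Usp29 over Peg3 differed by 0.07 and Nnat over Blcap by -0.07. The exact permutation p lay between 0.219 and 0.688 for these 6, and was 0.688 after adjustment over the 7. Peg13 and Trappc9 share 1293 exon bases on the same strand, and Mest and Copg2 share 912 on opposite strands, so both ratios are uncertain.

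Of the channels, receptors, transport and synaptic genes, 6 of 8 were tested, 1 was above 0 and 5 below, with a median of -0.12. Begain, a protein of the postsynaptic density that binds PSD-95 family proteins, was at 4.44, 6.25, 6.90, 4.90, 5.84 and 6.11 CPM in the libraries labelled TAAR5-KO and at 7.39, 6.61, 5.81, 6.99, 7.03 and 8.03 CPM in those labelled WT. The groups overlapped, since NK3 at the top of the former lay above NK8 and NK9 of the latter. The means of 5.74 ± 0.910 and 6.98 ± 0.749 CPM (SD, n = 6 each) gave a log2 fold change of -0.30 ± 0.12 (SE) and an adjusted p of 0.216 in edgeR's likelihood ratio test. With the choroid plexus sum as a covariate it was -0.37 (adjusted p = 0.0644), and with the trend on GC content removed -0.16 (adjusted p = 0.703). The exons of Begain have a GC content of 63.9%.

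Impact, a translational regulator that restrains the kinase GCN2 in neurons, was at 32.2, a median of 41.2 and 46.2 CPM against 38.0, a median of 41.1 and 49.6 CPM, and its groups overlapped over most of their range. Kcnk9, a maternally expressed two-pore potassium channel, had 7.78 ± 1.86 and 8.05 ± 0.764 CPM, and Sgce, the epsilon-sarcoglycan mutated in myoclonus dystonia, 3.89 ± 0.388 and 3.84 ± 0.709 CPM (SD, n = 6 each). Calcr, the calcitonin receptor, had 1 to 26 counts per library and Asb4, a substrate adaptor of a ubiquitin ligase, 1 to 18. Their log2 fold changes of -0.18 ± 0.52 and -0.49 ± 0.42 (SE) have 95% intervals of the ratio from 0.435 to 1.78 for Calcr and from 0.401 to 1.26 for Asb4. Without NK5 they were -0.97 and -0.96, and with the choroid plexus sum as a covariate 0.30 and -0.16. Slc38a4, an amino acid transporter of liver and placenta, had 48 counts in all and was not tested.

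The libraries differed from each other in ways that crossed the labels. NK3 held the lowest value for 11 of the 30 genes (36.7%), against 10.9% of all features, and NK5 the highest for 8 (26.7%), against 5.20%. Both are labelled TAAR5-KO. NK3 is among the 5 libraries low in choroid plexus markers and NK5 among the 7 high in them, and the sum of hypothalamic markers followed the same split, at 0.157 to 0.313 CPM in the 5 and 1.05 to 4.21 CPM in the 7.

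In the 7 libraries high in choroid plexus markers, Asb4 and Calcr were above every one of the 5 others, 2 of 30 genes (6.67%), against 1.50% of all features, and no gene was below, against 1.13%. The ratio of medians (7 over 5 libraries) was 3.23 for Igf2, 2.63 for Calcr, 2.37 for Asb4, 1.85 for Cdkn1c, 1.59 for Zim1 and 1.55 for Nnat, and at the other end 0.719 for Herc3, 0.858 for Peg13 and 0.904 for Kcnq1ot1. Counts of 1 to 26 per library make the ratios of Igf2, Calcr and Asb4 imprecise. On unscaled library sizes, Igf2 and Calcr reached the CPM limit of the filter only in libraries among the 7. Asb4 also reached it in NK12, among the 5. The entry of Igf2 and Calcr among the 30 thus rested on the high side of this split, and their ratios are not independent of the filter. The sum of leptomeningeal and vascular fibroblast markers overlapped, at 4.38 to 6.89 CPM in the 5 libraries and 4.96 to 9.71 CPM in the 7. The libraries were set apart by the choroid plexus markers and not by the members. The part of any of these tissues in the values was not tested.

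The balance of directions among the members differed between settings. With the choroid plexus sum as a covariate 18 of the 30 log2 fold changes were above 0 and 12 below, in place of 7 and 23, and without 1 library the number above 0 ran from 6 (without NK1) to 13 (without NK3), with 12 without NK6 or NK9. The cause was not tested.

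**Figure D4:**
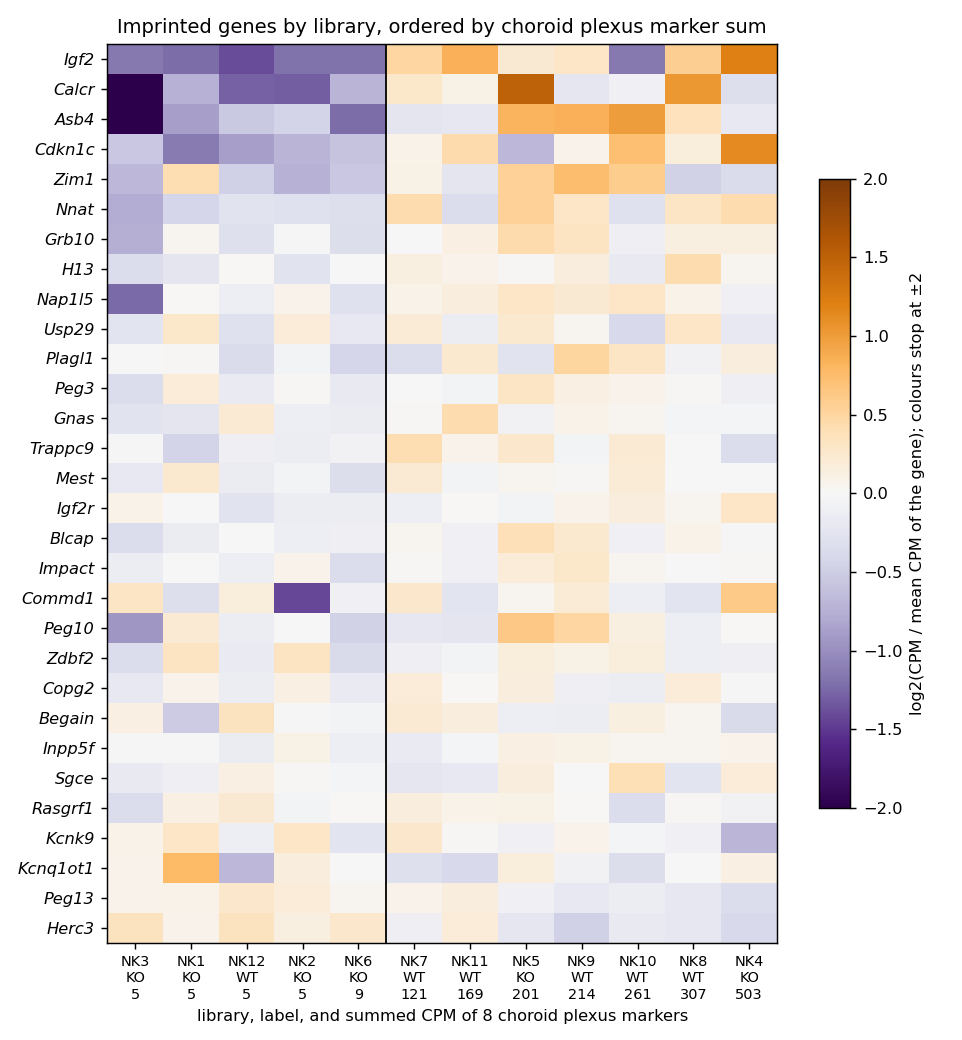
Log2 ratio of each library's CPM to the mean of the gene (colour, which stops at 2 on either side) for the 30 imprinted genes in rows and the 12 libraries in columns, ordered by the summed CPM of 8 choroid plexus markers, with a line between the 5 low and the 7 high libraries. Calcr and Asb4 are low in all 5 libraries left of the line, and Igf2 is low in these and in NK10. Other rows overlap across the line, with a median that is higher to its right except for Kcnq1ot1, Herc3, Kcnk9 and Peg13.

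**Figure D5:**
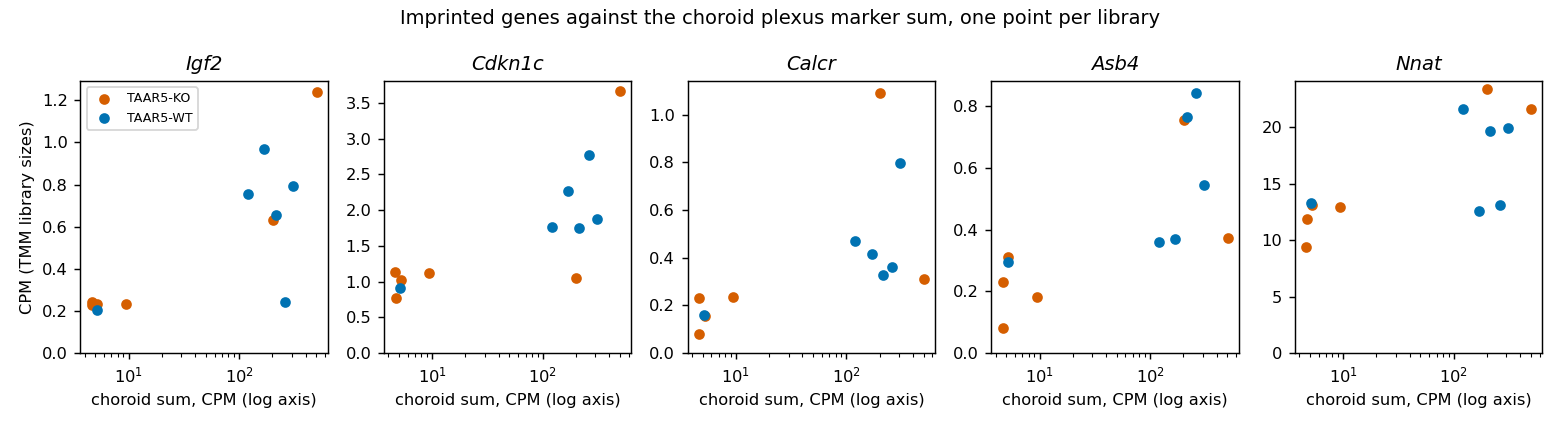
CPM of Igf2, Cdkn1c, Calcr, Asb4 and Nnat in each of the 12 libraries against the summed CPM of the choroid plexus markers on a log axis, in orange for libraries labelled TAAR5-KO and blue for those labelled WT. Calcr and Asb4 are higher in all 7 libraries on the right than in the 5 on the left, and for Igf2, Cdkn1c and Nnat both sides overlap.

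The other marker lists gave no separation of the labels as complete as that of the astrocyte list. Exact permutation tests of the sums gave p = 0.574 for choroid plexus, 0.165 for leptomeningeal and vascular fibroblasts, 0.779 for endothelium, 0.775 for ependyma, 0.0498 for hypothalamus, 0.106 for pituitary, 0.866 for interneurons, 0.288 for oligodendrocytes and 0.955 for cortical pyramidal neurons, without adjustment. Pituitary markers reached 53.1 CPM in NK11 and 5.76 CPM at most in the libraries labelled TAAR5-KO. Of the 3 pituitary markers tested, 1 was called lower. NK11 also had the highest Gnas, the highest sum of hypothalamic markers (4.21 CPM) and the lowest sum of spiny neuron markers (93.6 CPM). The part of these tissues in the values of Gnas was not tested. Of the other lists in this paragraph no marker was called by edgeR's likelihood ratio test.

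The genes that read, write or guard imprints were compared as the rest of the pathway. Of 28 listed, 23 were tested, 17 had log2 fold changes above 0 and 6 below, with a median of 0.06, and 1 was past the threshold, against 1.65% of all features. Smchd1, a chromatin protein needed for X inactivation and for silencing at some imprinted clusters, rose from 9.91 ± 0.677 CPM in the libraries labelled WT to 12.3 ± 1.35 CPM in those labelled TAAR5-KO (SD, n = 6 each), which is 0.30 ± 0.10 (SE) on the log2 scale, with an adjusted p of 0.0969 in edgeR's likelihood ratio test. It was 0.164 in the quasi-likelihood test and 0.0760 in DESeq2. The next by p were Arid4b, a chromatin protein (0.31, adjusted p = 0.157), and Atrx, a remodeller of heterochromatin (0.28, adjusted p = 0.325). Dnmt3b, Dnmt3l, Uhrf1, Ctcfl and Dppa3, which act mostly in germ cells, embryos or dividing cells, were below the filter.

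A further 34 genes outside the first list were looked up, and 23 were tested. They lie in or beside the same clusters or elsewhere and have parent-of-origin expression in some tissue, not necessarily in striatum. There were 9 above 0 and 14 below with a median of -0.06, the same median as the 30, and 0 passed in the likelihood ratio test, the quasi-likelihood test or DESeq2, while 4 of the 23 had an unadjusted p under 0.05 in the likelihood ratio test, against 11.9% of all features. These were Tssc4 and Cd81, given above, Ppp1r9a, the actin-binding neurabin of synapses (0.24, adjusted p = 0.331), and Ptk2, the focal adhesion kinase (0.22, adjusted p = 0.346).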

How the data were processed

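Total RNA of mouse striatum was sequenced in 6 libraries labelled TAAR5-KO and 6 labelled WT. The authors trimmed the reads with cutadapt 4.1, aligned them to GRCm39 with STAR 2.7.11b and assigned them to GENCODE M35 genes with featureCounts 2.0.6, and deposited whole-number counts without normalization, beside exon lengths. Whether strand was used in counting, and how multi-mapped reads were treated, is not given in the sources used here, so overlapping genes are uncertain. These include Usp29 and Gnas, with 14.8% and 8.68% of their exon bases shared with other features. A further 12 columns of counts were not used.

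Features reaching a CPM of 0.5 in 3 or more libraries entered the fit. They were scaled with TMM factors and compared with estimateDisp, glmFit and glmLRT in edgeR 4.0.16 (R 4.3.3), without covariates, at a Benjamini-Hochberg adjusted p under 0.1 over all features. The test, the CPM limits and the threshold follow the study's methods, which do not name TMM factors. Applied on TMM library sizes, the same CPM limits left 13053 features, the number that the study reports, and 29 members, without Calcr. In that setting 135 features were called higher and 99 lower, more than the study reports at this threshold. The study has more lower than higher, so its calls were not reproduced. The quasi-likelihood test of edgeR and DESeq2 1.42.0 were run beside the likelihood ratio test, and a missing adjusted p of DESeq2 stayed missing. Printed CPM are on TMM library sizes. Log2 ratios of pairs used a prior count of 2. GC content and exon overlap came from the exons deposited with the counts, placed on GRCm39, and biotype came from GENCODE M39. The fits were tested on simulated counts.

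Values in every library, or their lowest, median and highest, are given for members past the threshold, for those with an unadjusted p under 0.05 and for the 5 of highest level per length. Of the 2 further lists, the genes past the threshold and the 3 of smallest p are named. The neighbours of Kcnq1ot1 are named too, a choice made after its value was seen. The members, lists and tests were chosen with earlier results of these data known. The alternatives were other tests, scalings and filters, a threshold of 0.05, removal of each library's trend on length or GC content, and leaving out each library. The choroid plexus sum and the ribosomal RNA share as covariates, and the split of the libraries by that sum, were chosen after the data were seen.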

Additional observations from a re-analysis of the deposited data

Results flagged for a closer look

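Of 74 sets of 6 libraries of 1 label examined (60 of a gene's CPM and 14 of a pair's log2 ratio), 3 (4.05%) held a library farther from the others than Dixon's criterion allows, and chance alone gives about 1 in 20. All 3 were in libraries labelled TAAR5-KO. Kcnq1ot1 was at 58.3 CPM in NK1, while the other 5 libraries held 34.0 to 38.1 CPM. Cdkn1c was at 3.66 CPM in NK4, the library with the highest sum of choroid plexus markers (503 CPM), and at 0.766 to 1.14 CPM in the others. Calcr was at 1.09 CPM in NK5, from 26 counts, and at 0.0812 to 0.310 CPM in the others. The cause of these values was not tested.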

How the results depend on the processing

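The likelihood ratio test with TMM factors placed 1 of the 30 imprinted genes past the threshold. That count was 0 by the quasi-likelihood test, with library size as the only scaling and with the ribosomal RNA share as a covariate, 2 by DESeq2 (Gnas and Kcnq1ot1) and 2 with the choroid plexus sum as a covariate (Begain and Kcnq1ot1), and it ran from 0 (without NK7, NK11 or NK12) to 3 (without NK4, which adds Cdkn1c and Gnas) when 1 library was left out. Kcnq1ot1 itself was past the threshold in 19 of 25 alternatives. Its log2 fold change was 0.52 by the quasi-likelihood test, 0.43 with the ribosomal RNA share and 0.39 to 0.59 without 1 library. With library size alone it was 0.02, where the median of all features shifted by -0.49. In that setting 1 of the 30 genes was above 0 and 29 below, 7 features in all were called (0 higher and 7 lower, against 133 and 96), and no member had an unadjusted p under 0.05. The count of imprint maintenance genes fell from 1 to 0 by the quasi-likelihood test and with library size alone, and that of the further imprinted genes was 0 in both. The other alternatives were run for these lists only on the neighbours of Kcnq1ot1, of which Tssc4 passed with the choroid plexus sum. Of 746 log2 fold changes of members under the alternatives, 700 kept their side of the threshold and, where not called, stayed within 1 SE, 36 moved by more (25 of them with library size alone), 4 passed the threshold anew and 6 lost it. The sign changed in 58 of the 746, 12 of them with the choroid plexus sum as a covariate, and in 0 of those of Kcnq1ot1. Calls over all features were 229, against 63 by the quasi-likelihood test, 86 with the GC trend removed, 93 of 43668 without the filter, 98 with the ribosomal RNA share, 108 at an adjusted p under 0.05, and 85 (without NK11) to 415 (without NK4) when 1 library was left out. No paired analysis was possible because the columns carry the numbers NK1 to NK12 and not the animal numbers of the labels. Counts outside ribosomal RNA limit the scarce genes, for which only large changes could pass.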
